A study of Mus musculus with 6 samples.

Results

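Aminoacyl-tRNA synthetases are the enzymes that join each amino acid to its tRNA. The genes described here encode those of the cytosol and those of mitochondria, whose symbols end in 2. They were taken by symbol, or by its newer form with 1 appended, from the platform's gene table: 36 genes were listed, and 34 of them had a probe set of their own among the 19936 genes tested. These were 18 of 20 cytosolic and all 16 listed mitochondrial genes, read by 35 probe sets. Aars and Dars had no probe set that pairs with a single symbol and were not analysed here.

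Cytosolic synthetases charge tRNAs for translation of nuclear-encoded messages, while a separate set, also encoded in the nucleus, is imported into mitochondria to charge the tRNAs used there. Several cytosolic enzymes sit together in a multi-synthetase complex held by scaffold proteins. Transcription of many cytosolic synthetase genes is known to be raised by ATF4, a transcription factor made when amino acids are scarce or the endoplasmic reticulum is under stress.

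The cells were pre-B cells of wild-type C57Bl6 mice, aged 4 weeks, that carried the leukaemic fusion kinase BCR-ABL1. They were transduced with pMIG-IKZF1, which adds IKZF1, the gene for the transcription factor Ikaros (3 arrays, IKZF1 1 to 3), or with the empty vector pMIG (3 arrays, empty vector 1 to 3). Total RNA of GFP-positive sorted cells was taken 3 days later and hybridised to Affymetrix arrays. Neither the origin of the arrays within a group (separate cultures, animals or repeat preparations) nor the species and isoform of the insert is stated, so p-values refer to the spread between these samples alone, which may be technical.

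Levels are log2(intensity + 1), with intensity as deposited, and differences are IKZF1 minus empty vector on that scale. Median intensity over all probe sets was 102 to 107 on the IKZF1 arrays and 100.2 to 102 on the empty vector arrays. Ikzf1 averaged 13.10 in the IKZF1 group and 11.87 in the empty vector group. Of 10 genes fixed as pre-B cell markers 9 were measured, Cd79a and Ebf1 among them, with group means from 7.94 to 13.66 in the IKZF1 group and from 8.05 to 13.87 in the empty vector group. Limma called 0 of these 9, and 3 had an unadjusted p under 0.05: Cd79b (0.23), Pax5 (0.24) and Igll1 (-0.21). Over all 19936 genes 3671 had such a p. Of the 9, Rag1 and Dntt differed most between arrays of a group, Rag1 reading 8.83, 8.04 and 9.55 on the IKZF1 arrays and 7.93, 6.52 and 9.70 on the empty vector arrays, and Dntt 8.15, 7.32 and 8.37 on the IKZF1 arrays and 8.63, 7.66 and 9.39 on the empty vector arrays. The part of this spread in the results was not tested. Of markers of T cells, macrophages and monocytes, granulocytes, erythroid cells and megakaryocytes, 22 were measured. Their means were at most 7.34 in the IKZF1 group and 6.95 in the empty vector group, both in Cd3e. Limma called 0 of the 22, and 2 had an unadjusted p under 0.05: Cd3e (0.39) and Lyz2 (-0.47). The summed intensity of the 5 T cell markers was 343.4 to 438.5 on the IKZF1 arrays and 309.1 to 321.5 on the empty vector arrays, and its part in the results was not tested. All 34 synthetase genes lay on every array above 6.18, the level under which 95% of 1194 olfactory and vomeronasal receptor genes fell on average. Both group means of Cd3e lay above this level as well.

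Setting IKZF1 cells against empty vector cells asked whether transcripts of the charging enzymes differ when Ikaros is supplied. Of the measured cytosolic genes 9 of 18 fell, led by Cars, Lars and Sars, and 1 of the 16 mitochondrial genes did, Iars2. Calls are at a Benjamini-Hochberg adjusted p under 0.05 in limma over all 19936 genes, of which 1.13% were called lower and 1.12% higher. The median log2 difference was -0.42 over the cytosolic genes and -0.10 over the mitochondrial genes, beside 0.03 over all genes tested. The mitochondrial median was -0.17 without IKZF1 1 and -0.06 without empty vector 3, and -0.20 with arrays centred on their medians, where the cytosolic median was -0.51 and that of all genes -0.06. Differences below 0 were seen for 16 of 18 cytosolic genes (15 to 17 under the other scalings of the arrays) and 14 of 16 mitochondrial genes (13 to 16). Among all genes tested 8125 of 19936 had a difference below 0 without such a rescaling. In RNA of whole samples, fewer cells with a transcript and less of it per cell cannot be told apart. The difference between both sets was not tested, since their members were chosen with results known.

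**Figure D1:**
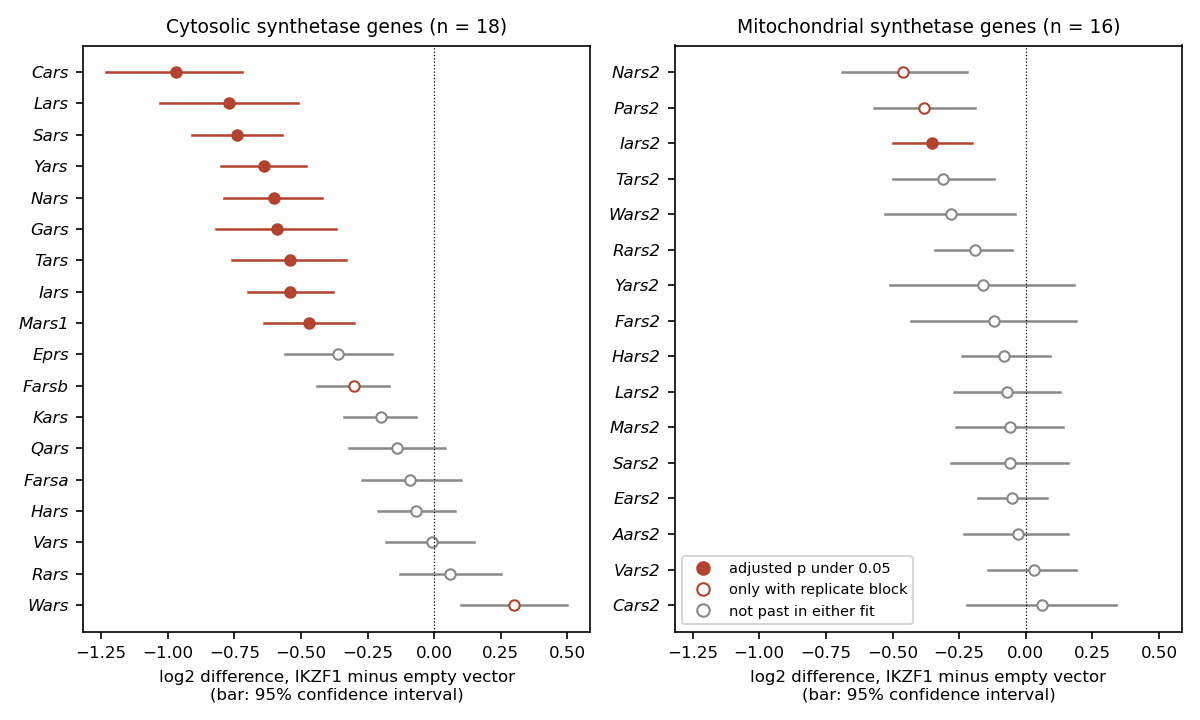
Log2 difference of each synthetase gene, IKZF1 minus empty vector, with its 95% confidence interval from limma (3 arrays per group), for 18 cytosolic genes (left) and 16 mitochondrial genes (right). Filled points passed an adjusted p under 0.05, and open red points passed only with the replicate number as a block. The cytosolic genes run from -0.97 for Cars to 0.30 for Wars, and the mitochondrial genes from -0.46 for Nars2 to 0.06 for Cars2.

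The strongest fall was that of Cars, which encodes the cysteinyl-tRNA synthetase. It read 9.68, 9.87 and 9.62 on IKZF1 arrays 1 to 3, against 10.85, 10.72 and 10.53 on empty vector arrays 1 to 3. No IKZF1 array came near the empty vector range, and the IKZF1 mean corresponded to 50.9% of the empty vector intensity. The log2 difference was -0.97 ± 0.11 (SE, n = 3 per group; limma, adjusted p = 0.013). Lars, for leucine, read 10.63, 10.77 and 10.59 on the IKZF1 arrays and 11.58, 11.50 and 11.23 on the empty vector arrays, a difference of -0.77 ± 0.11 (adjusted p = 0.027). Its empty vector arrays were more spread than its IKZF1 arrays, with SDs of 0.10 in the IKZF1 group and 0.19 in the empty vector group. Sars, for serine, had the smallest p of the family. It read 11.62, 11.60 and 11.59 on the IKZF1 arrays and 12.39, 12.42 and 12.22 on the empty vector arrays, a difference of -0.74 ± 0.07 (adjusted p = 0.0099). The 3 IKZF1 arrays were thus nearly equal for Sars, and well below the lowest empty vector array.

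Yars, which encodes the tyrosyl-tRNA synthetase, read 11.13, 11.10 and 11.10 on the IKZF1 arrays and 11.86, 11.70 and 11.69 on the empty vector arrays, a difference of -0.64 ± 0.07 (adjusted p = 0.012). Nars, for asparagine, read 12.10, 12.07 and 11.95 on the IKZF1 arrays and 12.76, 12.59 and 12.59 on the empty vector arrays (-0.60 ± 0.08, adjusted p = 0.019). Both groups stayed apart for each of these genes. Gars, for glycine, is a gene whose product serves cytosol and mitochondria alike. It read 11.69, 11.71 and 11.64 on the IKZF1 arrays and 12.43, 12.30 and 12.10 on the empty vector arrays (-0.59 ± 0.09, adjusted p = 0.035). Kars, for lysine, the other gene that supplies both compartments, had -0.20 and did not pass (95% interval -0.34 to -0.07, adjusted p = 0.14).

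Tars, for threonine, read 10.24, 10.03 and 10.08 on the IKZF1 arrays and 10.80, 10.61 and 10.58 on the empty vector arrays (-0.54 ± 0.09, adjusted p = 0.038). Iars, for isoleucine, read 11.92, 11.91 and 12.00 on the IKZF1 arrays and 12.55, 12.50 and 12.39 on the empty vector arrays (-0.54 ± 0.07, adjusted p = 0.019). A second probe set of Iars gave -0.56, with nearly the same level on every array. Mars1, for methionine, which also charges the initiator tRNA, read 10.80, 10.86 and 10.81 on the IKZF1 arrays and 11.40, 11.29 and 11.18 on the empty vector arrays (-0.47 ± 0.07, adjusted p = 0.032). In 8 of these 9 genes empty vector 1 was the highest array of its group, and in 8 empty vector 3 was the lowest. For each of the 9 genes a 2-sided exact permutation test of its 6 values reached p = 0.1, the lowest this number of arrays can give. The genes were called on the same arrays, so this p adds no support. Over all genes the IKZF1 arrays lay all below the empty vector arrays in 11.3% and all above them in 15.2%.

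**Figure D2:**
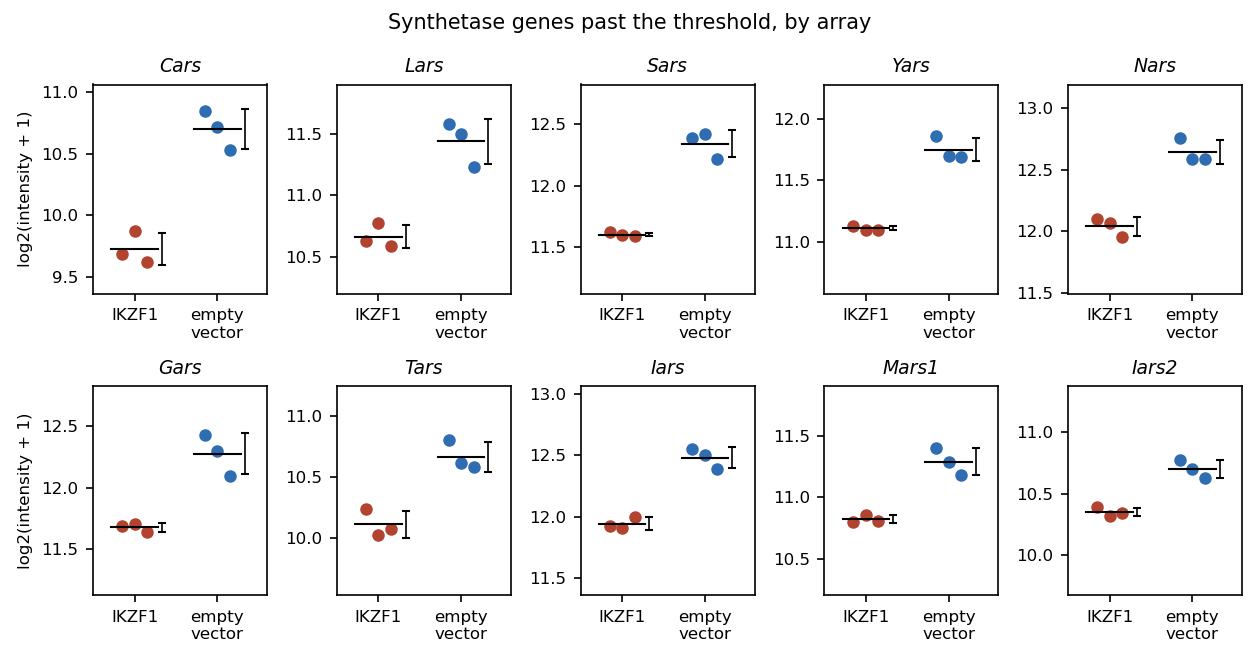
Log2(intensity + 1) of the 9 cytosolic genes and the mitochondrial gene Iars2 that passed the threshold, with 1 point per array, the group mean as a horizontal line and 1 SD as an error bar (n = 3). Each panel spans the same range of log2 units around its own mean, and the IKZF1 arrays (red) lie below all empty vector arrays (blue) in every panel, as for Cars at 9.62 to 9.87 against 10.53 to 10.85.

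The calls depended on single arrays. Cytosolic genes past the threshold numbered 10 without empty vector 3, 3 without empty vector 2 (Cars, Sars and Yars), 1 without IKZF1 2 (Cars) and 0 without empty vector 1, IKZF1 1 or IKZF1 3 in limma. In each of these 5 fits with fewer calls 13 of 18 genes had an unadjusted p under 0.05. The median difference stayed between -0.43 and -0.36, and calls over all genes were 24 to 163. Among all 19936 genes 3671 had such a p in the fit with all arrays, and the number in these 5 fits was not counted.

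Nothing passed upward among the cytosolic genes with all arrays and group as the only term, and the other 9 divided as follows. Farsb, the beta subunit of phenylalanyl-tRNA synthetase, read 10.73, 10.80 and 10.73 on the IKZF1 arrays and 11.09, 11.05 and 11.02 on the empty vector arrays (-0.30 ± 0.06, adjusted p = 0.054, and 0.047 with the replicate number as a block). Farsa, its alpha subunit, had -0.09, with a 95% interval of -0.27 to 0.10. Eprs, the joint glutamyl and prolyl enzyme, had -0.36 (adjusted p = 0.090), with all IKZF1 arrays below the empty vector arrays. Qars for glutamine (-0.14), Hars for histidine (-0.07), Vars for valine (-0.01) and Rars for arginine (0.06) had intervals that include 0, the widest reaching from -0.32 to 0.04 for Qars and from -0.13 to 0.25 for Rars. Vars turned to 0.02 with cyclic loess and Rars to -0.04 with arrays centred on their medians.

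Wars, for tryptophan, ran the other way. This gene is known to be induced by interferon gamma. It read 11.87, 11.92 and 11.76 on the IKZF1 arrays and 11.56, 11.66 and 11.41 on the empty vector arrays, so all IKZF1 arrays were the higher ones. Its difference of 0.30 ± 0.08 did not pass in limma (adjusted p = 0.14) and did with the replicate number as a block (adjusted p = 0.045). With that block 10 cytosolic genes were lower and 1 higher, where 3.85% and 3.36% of all genes were. The IKZF1 arrays lay all below the empty vector arrays for 12 of 18 cytosolic genes and 6 of 16 mitochondrial genes, against 11.3% of all genes, and all above them for Wars alone of the 34, against 15.2% of all genes.

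Falls were spread over the structural classes of the enzymes. Synthetases fall into class I and class II by the fold of their catalytic domain, and 5 of 9 cytosolic class I genes and 4 of 8 class II genes fell, Eprs holding a domain of each. Of 7 measured genes whose products sit in the multi-synthetase complex, 3 fell (Iars, Lars and Mars1), with a median of -0.36. Outside the complex 6 of 11 did, with a median of -0.54.

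Promoter sequence was read for the genes that fell because many of them are known ATF4 targets, and the transcripts of Atf4 and of Ddit3, a further stress factor, were lower too. Atf4 read 9.26, 9.14 and 9.26 on the IKZF1 arrays and 9.92, 9.87 and 9.90 on the empty vector arrays (-0.68, adjusted p = 0.0073), and Ddit3 had -0.85 (adjusted p = 0.040). With 1 array left out Atf4 had an adjusted p of 0.0084 to 0.075 and did not pass without empty vector 1 or IKZF1 1, and Ddit3 passed only without empty vector 3. Myc, which also raises genes of protein synthesis, had -0.39 (adjusted p = 0.20, and 0.041 with the block). The part of these factors in the synthetase values was not tested. Windows of 250 bases before to 50 after a transcript start, from RefSeq on GRCm38.p6, were found for 25 of the 34 genes. There was none for Cars, Hars, Lars, Nars, Rars, Vars, Wars, Hars2 and Pars2. The letters TGATGNAA, the core of the composite C/EBP-ATF element that ATF4 reads, were searched on both strands and stood in 4 of 6 windows of cytosolic genes that fell (Gars, Iars, Tars and Yars), in 0 of 5 windows of other cytosolic genes and in 0 of 14 windows of mitochondrial genes. They stand in 4.51% of 27025 genes with such windows. Below, 100 bases before to 20 after the start are given 5′ to 3′ along the gene for those 4 genes, and, without a match, for Sars, the gene with the smallest p, and for Iars2, the mitochondrial counterpart of Iars. Capitals mark the match, which lies on the opposite strand in Gars, Tars and Iars and on the gene's own strand in Yars.
Gars, chr6:55037901-55038020, plus strand: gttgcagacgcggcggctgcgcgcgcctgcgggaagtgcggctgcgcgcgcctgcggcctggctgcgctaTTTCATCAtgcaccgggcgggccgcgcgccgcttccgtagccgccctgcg
Tars, chr15:11399639-11399758, minus strand: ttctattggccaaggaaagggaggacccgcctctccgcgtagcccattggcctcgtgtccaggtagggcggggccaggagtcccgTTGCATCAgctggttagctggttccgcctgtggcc
Iars, chr13:49682030-49682149, plus strand: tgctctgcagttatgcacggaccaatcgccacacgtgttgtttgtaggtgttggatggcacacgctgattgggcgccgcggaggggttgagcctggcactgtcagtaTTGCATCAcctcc
Yars, chr4:129189803-129189922, plus strand: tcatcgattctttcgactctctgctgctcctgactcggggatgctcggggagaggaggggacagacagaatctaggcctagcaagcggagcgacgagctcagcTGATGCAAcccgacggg
Sars, chr3:108445240-108445359, minus strand: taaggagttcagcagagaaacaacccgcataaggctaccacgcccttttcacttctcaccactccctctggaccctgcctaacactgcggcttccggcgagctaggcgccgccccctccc
Iars2, chr1:185329382-185329501, minus strand: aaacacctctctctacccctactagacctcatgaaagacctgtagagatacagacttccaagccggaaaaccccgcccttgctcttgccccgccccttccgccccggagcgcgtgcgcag

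Positions count from the transcript start used for the window, its first base as 1 and the base before it as -1. The match begins at position -30 in Gars, -15 in Tars, 8 in Iars and 4 in Yars. In Yars the RefSeq gene begins at chr4:129189734, before the printed stretch, so its match does not lie at that gene start. Its variable base gave TGATGAAA in Gars and TGATGCAA in the other 3 genes. The E-box CACGTG, whose letters read the same on both strands, stood in 2 of 6 windows of cytosolic genes that fell. These were Iars and Tars, whose windows also hold TGATGNAA. It stood in 1 of 5 of other cytosolic genes (Farsb) and 1 of 14 of mitochondrial genes (Ears2), beside 8.09% of all genes. TGGGAA, the core of sites bound by Ikaros, stood in 0 of 6, 1 of 5 (Farsb) and 1 of 14 (Tars2) of these windows (28.3% of all genes). CCGGAAG, a core of Ets factor sites, stood in 3 of 6 windows of cytosolic genes that fell, 2 of 5 of other cytosolic genes and 4 of 14 of mitochondrial genes (9.93% of all genes). TGATGNAA overlapped with none of these other motifs. A match is a description of these letters and not a site of binding, and the motifs were chosen with results known.

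Among the mitochondrial genes Iars2, for isoleucine, was the one that fell. It read 10.39, 10.32 and 10.34 on the IKZF1 arrays and 10.77, 10.70 and 10.63 on the empty vector arrays (-0.35 ± 0.06, adjusted p = 0.047). The call was close to the threshold and was lost without any single array other than empty vector 3 (adjusted p up to 0.22), with a trended prior, quantile normalization or cyclic loess (adjusted p up to 0.065). Nars2, for asparagine, read 9.28, 9.03 and 9.29 on the IKZF1 arrays and 9.79, 9.59 and 9.59 on the empty vector arrays (-0.46 ± 0.10, adjusted p = 0.075, and 0.030 with the block). Pars2, for proline, read 8.15, 8.01 and 8.12 on the IKZF1 arrays and 8.60, 8.41 and 8.41 on the empty vector arrays (-0.38 ± 0.08, adjusted p = 0.068, and 0.032 with the block). With the block 3 mitochondrial genes were thus lower, in place of 1, while lower calls over all genes went from 1.13% to 3.85%. With quantile normalization 1 mitochondrial gene was called lower, and it was Pars2 in place of Iars2. Tars2, for threonine, read 10.13, 9.98 and 10.05 on the IKZF1 arrays and 10.45, 10.39 and 10.24 on the empty vector arrays (-0.31, adjusted p = 0.12).

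In these 4 genes the IKZF1 arrays lay below all empty vector arrays. The same held for Rars2 (-0.19) and Wars2 (-0.28), which did not pass in either fit. The other 10, among them Aars2 for alanine, Ears2 for glutamate and Lars2 for leucine, had overlapping groups, 95% intervals that include 0 and differences from -0.16 for Yars2 to 0.06 for Cars2. Of these, Cars2 turned to -0.04 and Vars2 to -0.07 with arrays centred on their medians, and Aars2 to 0.01 with quantile normalization. The interval was narrowest for Ears2, from -0.18 to 0.08, and reached from -0.51 to 0.18 for Yars2 and from -0.22 to 0.34 for Cars2, so a change of the size seen in Nars2 was within the interval of Yars2 and outside those of Ears2 and Cars2.

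Cytosolic and mitochondrial genes for the same amino acid were set side by side in 12 pairs. The cytosolic difference was the more negative in 9 of them: the 8 pairs whose cytosolic gene fell and valine (-0.01 in Vars, 0.03 in Vars2). In those 8 pairs the call of the cytosolic gene on the same arrays already favours this direction. For cysteine, Cars had -0.97 and Cars2 0.06, and the change in the offset between both genes was -1.03 ± 0.19 (SE, n = 3). For leucine it was -0.70 ± 0.16, for serine -0.68 ± 0.15, for tyrosine -0.47 ± 0.17 and for methionine -0.41 ± 0.13. Threonine (-0.24 ± 0.05), isoleucine (-0.19 ± 0.04) and asparagine (-0.15 ± 0.11) had smaller gaps, with differences of -0.31, -0.35 and -0.46 in Tars2, Iars2 and Nars2. The offset moved the other way for tryptophan (0.59 ± 0.19) and arginine (0.26 ± 0.08). For histidine and valine both genes had differences near 0. In 2-sided exact permutation tests of the offset, p was 0.1, the smallest possible, for 9 pairs and 0.4 to 0.9 for asparagine, valine and histidine. Adjusted over the 12 pairs the smallest was 0.13, so no pair could pass in this test, which does not use the pairing of arrays; no other test of the offset was run.

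**Figure D3:**
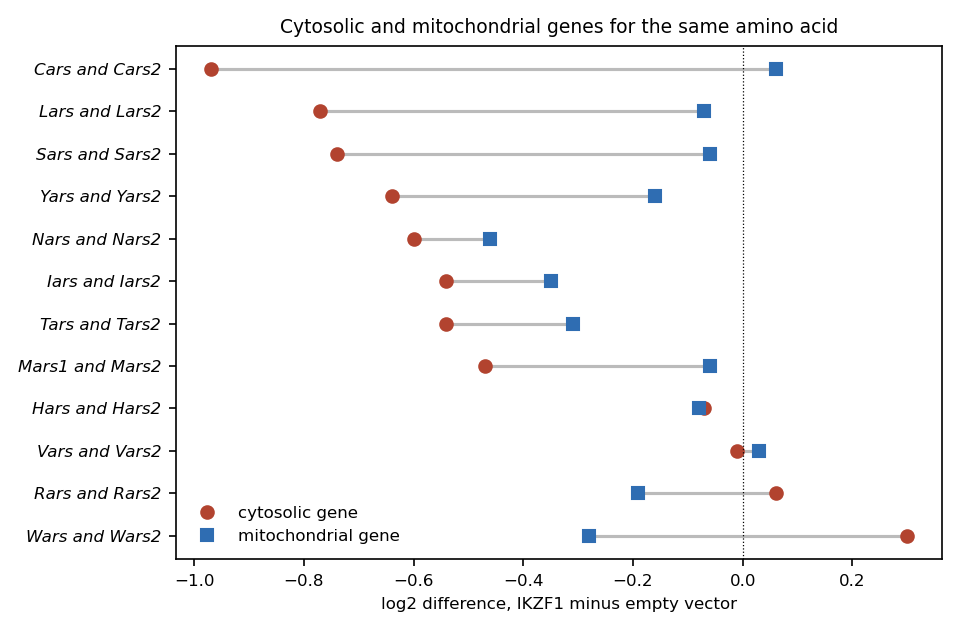
Log2 difference, IKZF1 minus empty vector, of the cytosolic gene (circle) and the mitochondrial gene (square) for each of 12 amino acids, joined by a line. The longest line is that of Cars (-0.97) and Cars2 (0.06), and the circle lies to the right of the square for tryptophan, arginine and histidine.

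Genes that work beside the synthetases gave single calls. Of 3 scaffold genes of the multi-synthetase complex, Aimp1 fell (-0.51, adjusted p = 0.023), reading 9.09, 9.14 and 9.22 on the IKZF1 arrays and 9.69, 9.57 and 9.70 on the empty vector arrays. Aimp2 had 0.02 (adjusted p = 0.94) and Eef1e1 -0.28 (adjusted p = 0.26). Of 10 genes of tRNA export, CCA addition, proofreading and processing, 1 fell and 9 did not pass (median -0.17). It was Xpot, the exporter of tRNA from the nucleus, at 11.03, 10.85 and 11.09 on the IKZF1 arrays and 11.60, 11.64 and 11.39 on the empty vector arrays (-0.56, adjusted p = 0.047). The 3 next by p were Ssb, which binds new tRNA transcripts (-0.18, adjusted p = 0.15), Elac2, which trims their 3′ ends (-0.16, 0.19), and Elac1 (-0.20, 0.30). With 1 array left out Aimp1 passed without empty vector 2 or 3 and Xpot without empty vector 3 only, and Xpot had an adjusted p of 0.058 with cyclic loess.

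Of 6 genes of selenocysteine charging and insertion, 1 fell (median -0.21). This was Pstk, the kinase that phosphorylates seryl-tRNA on the way to selenocysteine, at 7.45, 7.33 and 7.45 on the IKZF1 arrays and 7.99, 8.01 and 7.98 on the empty vector arrays (-0.58, adjusted p = 0.012). Its groups were far apart relative to their spread. Among 9 mitochondrial translation factors Mtrf1, a release factor family member, fell (-0.48, adjusted p = 0.046) and 8 did not pass (median -0.14). Mtif2, an initiation factor, had -0.56 (adjusted p = 0.082, and 0.038 with the block). With 1 array left out Pstk had an adjusted p of 0.012 to 0.094, passing without empty vector 2, empty vector 3 or IKZF1 2, and Mtrf1 one of 0.050 to 0.22. Mtrf1 also did not pass with centring, quantile normalization, cyclic loess or a trended prior (up to 0.063).

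Of 4 measured genes of other mitochondrial charging steps, limma called 0, and 1 had an unadjusted p under 0.05 (median -0.03). Such a p was found for 3671 of all 19936 genes. Mtfmt, which formylates the initiator methionyl-tRNA, had -0.06 (adjusted p = 0.63). The gene with the smallest p was Gatb (-0.36, adjusted p = 0.22, and 0.030 with the block), a subunit of the amidotransferase that completes mitochondrial glutaminyl-tRNA together with the products of Qrsl1 (0.10) and Gatc (0.00). Of 5 measured cytosolic elongation factor genes, limma called 0, with or without the block, while 2 reached an unadjusted p under 0.05 (median -0.07). Eef1a1, which carries charged tRNA to the ribosome, read 14.28, 14.27 and 14.28 on the IKZF1 arrays and 14.33, 14.38 and 14.33 on the empty vector arrays (-0.07, 95% interval -0.20 to 0.06). The interval of Eef2, the translocation factor, ran from -0.18 to 0.08. The genes of this list with the smaller p were Eef1b2 and Eef1e1. Eef1b2, which recharges the carrier with GTP, had -0.22 (95% interval -0.37 to -0.06, adjusted p = 0.16). Eef1e1, a scaffold gene of the multi-synthetase complex that this list also holds, had -0.28 (interval -0.56 to -0.01). Eef1b2 had all IKZF1 arrays below the empty vector arrays, and the interval of Eef1e1 covers the differences of Mars1, Iars and Tars.

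**Figure D4:**
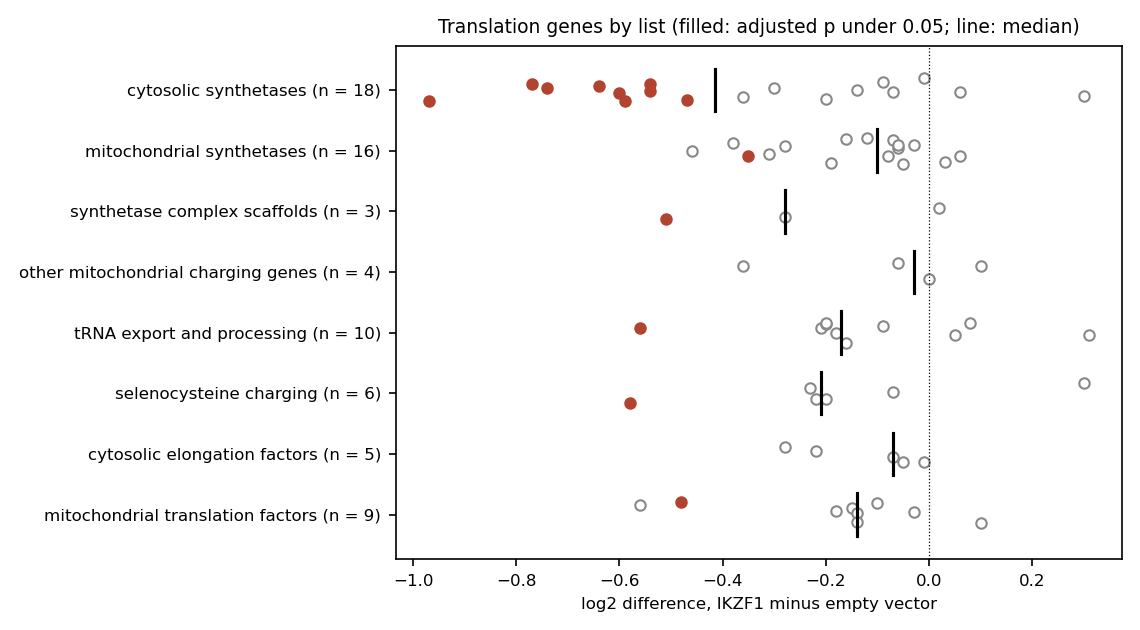
Log2 difference, IKZF1 minus empty vector, of each gene of the synthetase sets and of 6 further lists of translation genes, with 1 point per gene (filled where the adjusted p was under 0.05) and the list median as a vertical line; the vertical scatter within a list carries no value. The cytosolic synthetases have a median of -0.42 and the cytosolic elongation factors one of -0.07, and Eef1e1 stands in 2 lists.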

How the data were processed

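Expression was measured on 6 Affymetrix arrays, 3 per group, grouped by their titles. The authors normalized the values with RMA, per the submitters' processing notes; a version is not given in the sources used here. Deposited values were taken as intensity on a linear scale, since they run from 11.1 to 23523, although RMA usually yields logs. RMA as a method includes quantile normalization, which lessens shifts shared by most genes.

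From the deposited intensity, log2(intensity + 1) was computed. Of 35421 probe sets 21789 had 1 gene symbol, 1621 several and 12011 none in the platform's gene table. Symbols were updated through RefSeq (2 changed). The brightest probe set stood for a gene, which left 19936 genes, with no filter on level. Tests used limma 3.58.1 under R 4.3.3 with group as the only term, 2-sided, and Benjamini-Hochberg adjustment over all genes. Arrays carry no read depth, and their number limits the precision. The script was tested on simulated data.

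Titles share replicate numbers between groups. Deviations from the group means correlated over genes at r = 0.24, 0.60 and 0.66 for equal numbers and -0.68 to 0.11 for unequal ones. The numbers were therefore taken as pairs in an alternative fit only. The calls, intervals and SEs given, also the SEs of the offsets, do not use the pairs. The paired fit, with the number as replicate block, called 1438 genes in place of 448. It is quoted where it changes a call. Other alternatives left out each array, used a pseudocount of 16, brighter genes, the mean of probe sets, quantile normalization, cyclic loess, median centring, a trended prior or array weights.

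Members, lists and motifs were chosen with earlier results of these data known. Values of every array are given for members past the threshold, with or without the block, and the 4 mitochondrial members with the smallest p. Up to 4 genes are named per further list, those past the threshold first and then by p.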

Additional observations from a re-analysis of the deposited data

How the results depend on the processing

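The 9 cytosolic genes past the threshold passed in each of the 9 settings that kept all arrays, with 9 to 12 cytosolic genes called in all. The median cytosolic difference was -0.51 with arrays centred on their medians and -0.48 with array weights, and -0.48 to -0.36 when 1 array was left out, where 0 to 10 cytosolic genes passed. Mitochondrial calls numbered 3 with the replicate block, 4 with array weights and 0 in limma with cyclic loess or a trended prior (6 with an unadjusted p under 0.05 in each), and 0 to 1 with 1 array left out. With all arrays and group as the only term, 3671 of all 19936 genes had such an unadjusted p. The mitochondrial median was -0.20 after centring and -0.17 to -0.06 with 1 array left out. Calls over all genes were 1438 with the replicate block, 1481 with array weights and 24 to 947 with 1 array left out. A fit with 1 array left out has fewer degrees of freedom. Such fits gave 24 calls without IKZF1 1 and 947 without empty vector 3, and the cause of these counts was not tested.

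Of 510 values of single genes under these settings, 17 turned sign, each of a gene near 0 with an adjusted p of at least 0.55. Rars had -0.01 without empty vector 2 and -0.04 after centring. Vars had 0.02 without IKZF1 1, 0.01 without empty vector 1, 0.00 without empty vector 2 and 0.02 with cyclic loess. Aars2 had 0.01 without IKZF1 1, 0.02 without empty vector 3, 0.01 with quantile normalization and 0.02 with array weights. Cars2 had -0.07 without empty vector 2 and -0.04 after centring. Without empty vector 3, Mars2 and Sars2 had 0.01 and Vars2 -0.03, and Vars2 had -0.07 after centring and -0.03 with array weights. With 1 array left out these genes ranged from -0.01 to 0.12 (Rars), -0.06 to 0.02 (Vars), -0.09 to 0.02 (Aars2), -0.07 to 0.13 (Cars2), -0.12 to 0.01 (Mars2), -0.15 to 0.01 (Sars2) and -0.03 to 0.06 (Vars2). A further 49 values no longer passed and 14 newly passed. All 34 synthetase genes lay above the receptor gene level on every array, and the part of signal level in these changes was not tested.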
